A study of Mus musculus with 29 samples.

Results

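The samples described here are 12 mouse neuroblastomas that stood at the ends of a fat score, the 6 with the highest and the 6 with the lowest, of 24 primary abdominal tumours and 29 arrays in all. The score of a tumour was the mean log2 signal of 3 adipocyte genes: Adipoq, the fat hormone adiponectin; Fabp4, a fatty acid carrier that endothelial cells and macrophages also make; and Cidec, a coat protein of large lipid droplets. The rule names 5 genes, and the other 2 had no probe set under their name alone in the annotation used here. All mice were TH-MYCN mice of strain 129X1/SvJ, in which the tyrosine hydroxylase promoter drives human MYCN in sympathetic cells, and were labelled either wild type or deficient for caspase-8, a protease that starts death receptor apoptosis. The 24 tumours comprised 7 wild type and 17 deficient ones, and the other 5 arrays were total bone marrow. How the deficiency was made, the age of the mice and whether tumours shared a litter are not given in the sources used here. Total RNA was measured on 1 microarray a tumour, so the number of arrays limits the precision, and the p-values measure only the spread between these samples.

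White adipocytes store triglyceride in one large droplet and secrete hormones such as leptin and, in mice, resistin. Brown adipocytes hold many small droplets and mitochondria, and burn fatty acids for heat through the uncoupling protein Ucp1. Depots of brown and white fat lie beside the sympathetic ganglia, adrenal glands and kidneys of the mouse abdomen. In bulk RNA, fewer fat cells and less RNA per fat cell cannot be told apart.

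The 6 fat-high tumours had a mean score of 8.65 ± 0.59 (SD, n = 6) and the 6 fat-low tumours 5.19 ± 0.29 (SD, n = 6) on the log2 scale. The members were chosen by these values, which are given as a description. The fat-high tumours were deficient tumour 7 at 9.31, deficient tumour 3 at 9.27, wild type tumour 1 at 8.71, deficient tumour 10 at 8.64, deficient tumour 12 at 8.10 and deficient tumour 4 at 7.86. The next tumour below them, deficient tumour 16, scored 7.70. The fat-low tumours were wild type tumour 4 at 5.51, deficient tumour 6 at 5.43, deficient tumour 17 at 5.36, deficient tumour 5 at 5.17, wild type tumour 5 at 4.89 and deficient tumour 9 at 4.80, and the next above them, deficient tumour 11, scored 6.08. The upper border thus fell between neighbouring scores, and the fat-high group is a range of a continuous measure, not a class. Mean scores were 7.12 ± 1.38 (SD) in the 17 deficient and 6.72 ± 1.26 (SD) in the 7 wild type tumours. The tumour titles carry a lower and a higher series of numbers, and 4 of the 6 fat-high but 2 of the 6 fat-low tumours came from the lower series. Signal at the 3' end of control transcripts exceeded that at the 5' end by 0.73 ± 0.16 in fat-high and 0.71 ± 0.19 in fat-low tumours (log2, SD, n = 6 each), and pairs of tumours correlated at 0.969 to 0.993 across probe sets.

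**Figure D1:**
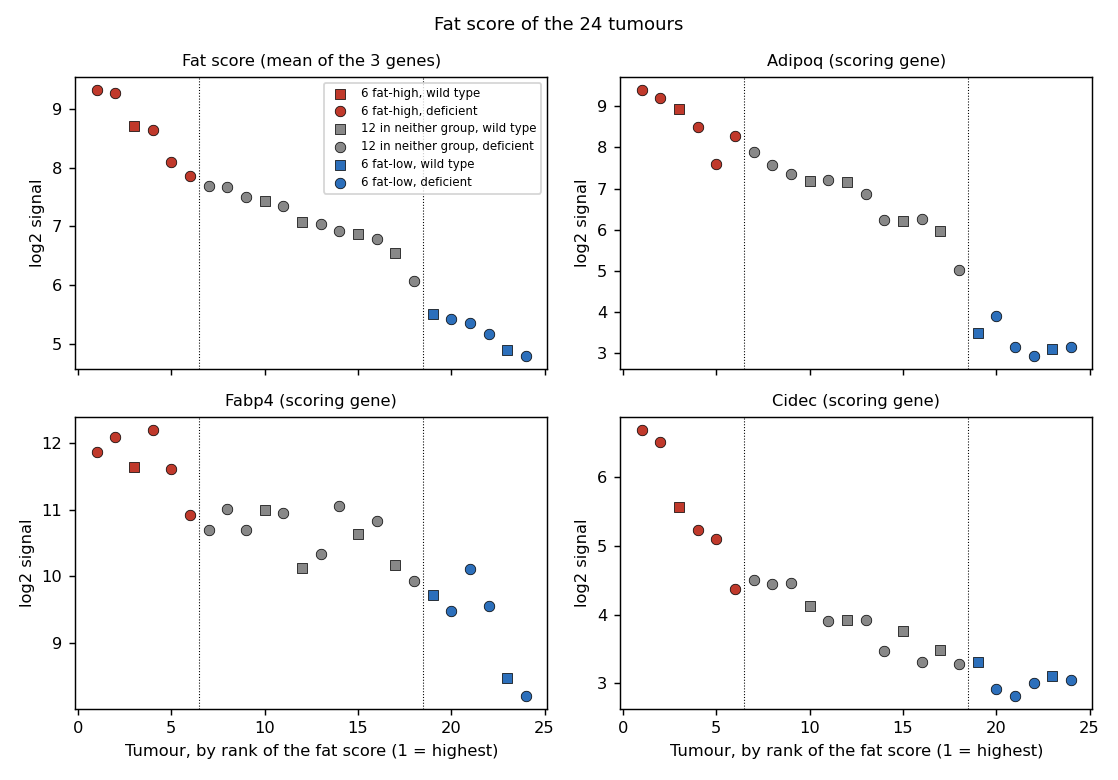
Fat score and log2 signal of its 3 genes in the 24 tumours, ordered by rank of the score (squares, wild type; circles, caspase-8 deficient; dotted lines, borders of the groups). Adipoq lay between 2.93 and 3.90 in the fat-low tumours and between 7.59 and 9.39 in the fat-high tumours.

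Which fat the genes point to was asked of the brown and white adipocyte genes. Ucp1 and Cox7a1, a cytochrome c oxidase subunit, stood above the highest fat-low tumour in 5 of the 6 fat-high tumours. The brown list genes Cox8b and Elovl3 and the white fat hormone gene Retn stood above it in all 6, Retn by a small margin in deficient tumours 12 and 4. The exception for Ucp1 and Cox7a1 was deficient tumour 7, which had the highest fat score, Cox8b at 5.44 against a fat-low maximum of 4.86, and Elovl3 at 3.88 against 3.86. By these genes, 5 fat-high tumours stood above the highest fat-low tumour for Ucp1, Cox7a1, Cox8b, Elovl3 and Retn. In deficient tumours 12 and 4, Retn was at 5.20 and 5.30 against a fat-low maximum of 5.18. Deficient tumour 7 stood above for Retn, Cox8b and narrowly Elovl3, but not for Ucp1 or Cox7a1. Not all genes of the brown and white lists followed: Cidea, Prdm16 and Lep differed by 0.22, 0.21 and 0.02 between the groups.

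The 250 bases before the start of Ucp1, Cox8b and Retn are shown because these genes mark the brown and white signal. They are from RefSeq on build GRCm38.p6, and capitals mark AGGTCA, the half-site of nuclear receptors such as PPARs, searched on both strands.
Ucp1 (chr8:83290098-83290347, plus strand): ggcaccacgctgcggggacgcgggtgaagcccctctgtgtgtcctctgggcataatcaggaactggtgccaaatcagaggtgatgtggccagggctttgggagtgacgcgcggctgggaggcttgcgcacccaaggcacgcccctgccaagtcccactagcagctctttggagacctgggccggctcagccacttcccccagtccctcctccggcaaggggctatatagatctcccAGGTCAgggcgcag
Cox8b (chr7:140900447-140900696, minus strand): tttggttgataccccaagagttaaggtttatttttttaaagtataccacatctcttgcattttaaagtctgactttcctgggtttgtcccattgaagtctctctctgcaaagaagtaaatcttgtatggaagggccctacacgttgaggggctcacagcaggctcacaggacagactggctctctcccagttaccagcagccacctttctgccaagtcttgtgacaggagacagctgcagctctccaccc
Retn (chr8:3655520-3655769, plus strand): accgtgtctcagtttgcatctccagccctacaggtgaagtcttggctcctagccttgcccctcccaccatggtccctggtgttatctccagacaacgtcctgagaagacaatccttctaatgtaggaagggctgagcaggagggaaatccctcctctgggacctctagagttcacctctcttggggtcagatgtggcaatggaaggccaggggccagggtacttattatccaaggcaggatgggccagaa
The motif began 14 bases before the start in Ucp1 and was not found in the other two windows. It occurred in 14% of 32851 promoters of the same length, and in 3 of the 12 genes called below that had a promoter in the table. A match is a description of the letters and does not show binding.

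Ucp1 had a log2 signal of 10.31 in deficient tumour 3, 10.22 in deficient tumour 12, 8.75 in deficient tumour 10, 8.52 in wild type tumour 1, 7.94 in deficient tumour 4 and 4.66 in deficient tumour 7. The 6 fat-low tumours ranged from 4.21 to 4.89 with a median of 4.51. Of the fat-high tumours, deficient tumour 7 alone lay inside the fat-low range. The means were 8.40 ± 2.07 and 4.52 ± 0.28 (SD, n = 6 each), a difference of 3.88 with a 95% interval of 2.27 to 5.49, which missed the threshold (limma, adjusted p = 0.0703). Without deficient tumour 7 the difference was 4.63 (adjusted p = 0.00047). That tumour was singled out by its Ucp1 value, so the lower p is no added support.

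Cox8b encodes a cytochrome c oxidase subunit of brown fat, heart and muscle. It ranged from 5.44 to 9.10 (median 7.72) in fat-high and from 4.13 to 4.86 (median 4.46) in fat-low tumours. The groups did not overlap, and the difference of 3.03 ± 0.45 (SE) was called (adjusted p = 0.0166). Deficient tumour 7 was again the lowest of the fat-high tumours.

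Cox7a1, another subunit of that complex, differed by 2.27 (adjusted p = 0.119), and by 2.71 without deficient tumour 7 (adjusted p = 0.00565). Elovl3, which elongates fatty acids in cold-exposed brown fat, differed by 1.78 (adjusted p = 0.187), and by 2.08 without that tumour (adjusted p = 0.0494). Plin5, a lipid droplet protein of oxidative tissues, differed by 0.95 (adjusted p = 0.240) and was called without it, at 1.13 (adjusted p = 0.0408). Slc36a2, an amino acid transporter used as a marker of beige and brown fat, went from 1.25 (adjusted p = 0.0827) to 1.45 (adjusted p = 0.0118). All 4 genes were past the threshold once that tumour was left out, when 31 genes were called higher in all, against 24 with it. Genes of other lists, Acadl, Gpd1 and Slc2a4, also gained the call in that fit. Each of the 12 tumours was left out in turn, and deficient tumour 7 was singled out after its values were seen. The gained calls are thus no added support.

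Other genes of brown fat were not called. Cidea, a lipid droplet protein of brown fat, was at 10.02 ± 0.47 and 9.80 ± 0.42 in fat-high and fat-low tumours (SD, n = 6 each; adjusted p = 0.845). Its levels overlapped between the groups, from 9.28 to 10.53 and from 9.23 to 10.32. Prdm16, a transcription factor of brown fat identity, differed by 0.21 (95% interval -0.30 to 0.72), and Ppargc1a, a coactivator of mitochondrial genes, by -0.18 (-0.99 to 0.63). Zic1 and Lhx8, markers of the interscapular brown depot, lay at or near the low end of the signal scale, except that Lhx8 reached 4.43 in wild type tumour 1.

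Retn, the gene for resistin, had a log2 signal of 6.598, 7.26, 7.15, 6.24, 5.20 and 5.30 in the fat-high tumours in order of falling score, deficient tumour 7 first. In the fat-low tumours it ranged from 4.70 to 5.18. The groups did not overlap, by a small margin at the lower end, and the difference of 1.31 (95% interval 0.61 to 2.02) was not called (adjusted p = 0.240). Lep, the gene for leptin, showed a difference of 0.02 with means of 3.05 and 3.03, near the low end of the scale. The positional genes Hoxc8, Hoxc9 and Hoxc10, which differ between fat depots, and Agt, which encodes angiotensinogen, also missed the threshold. Wfdc21, a secreted protein, differed by 1.29 (adjusted p = 0.172) and was called without deficient tumour 12, at 1.55 (adjusted p = 0.0145). Cav1, the coat protein of caveolae in fat and endothelium, differed by 1.43 (adjusted p = 0.164), and by 1.68 without deficient tumour 6 (adjusted p = 0.0332).

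Of 25 measured genes of the brown list, 2 were called higher (Cox8b and Pdk4, which muscle also expresses) and 0 lower, 21 differences were positive and the median was 0.34. Of 18 of the white list, 0 were called in either direction, 14 were positive and the median was 0.15. Its largest difference, 1.43, was that of Cav1, also an endothelial gene, and its member Trem2 is also a macrophage gene. Among genes with a mean log2 signal of 5 or more, the medians were 0.44 for the brown and 0.43 for the white list. Among 8 beige genes 0 were called, 6 were positive and the median was 0.39. Over all 18190 genes tested, 0.132% were called higher, 8588 differences were positive and the median was -0.01. The lists are unequal in size, and the difference between them was not tested.

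In each tumour the levels of Ucp1 and Retn were set against the highest fat-low tumour. Among the 6 fat-high tumours, 5 were above it for both genes and 1, deficient tumour 7, for Retn alone. Among the 12 tumours in neither group, 7 were above it for both, 2 for Ucp1 alone and 3 for Retn alone. Some margins were small. Deficient tumour 11 counted as above for Ucp1 at 4.92 against 4.89. The 2 with Ucp1 alone, wild type tumour 6 and deficient tumour 13, had Retn at 5.12 and 5.14 against 5.18. Deficient tumour 16 had Ucp1 at 3.90 and Retn at 7.01, and deficient tumour 13 had Ucp1 at 8.53 and Retn at 5.14. Tumours of either pattern thus occurred outside the compared groups.

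**Figure D2:**
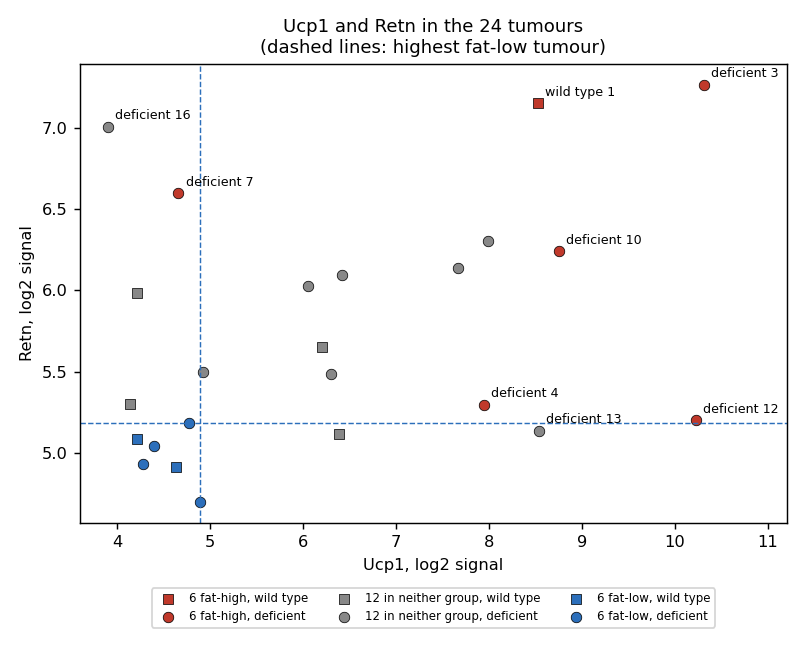
Log2 signal of Ucp1 against Retn in the 24 tumours (squares, wild type; circles, deficient; dashed lines, the highest fat-low tumour). Deficient tumours 7 and 16 have Retn at 6.598 and 7.01 with Ucp1 at 4.66 and 3.90, whereas deficient tumour 12 has Ucp1 at 10.22 and Retn at 5.20.

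**Figure D3:**
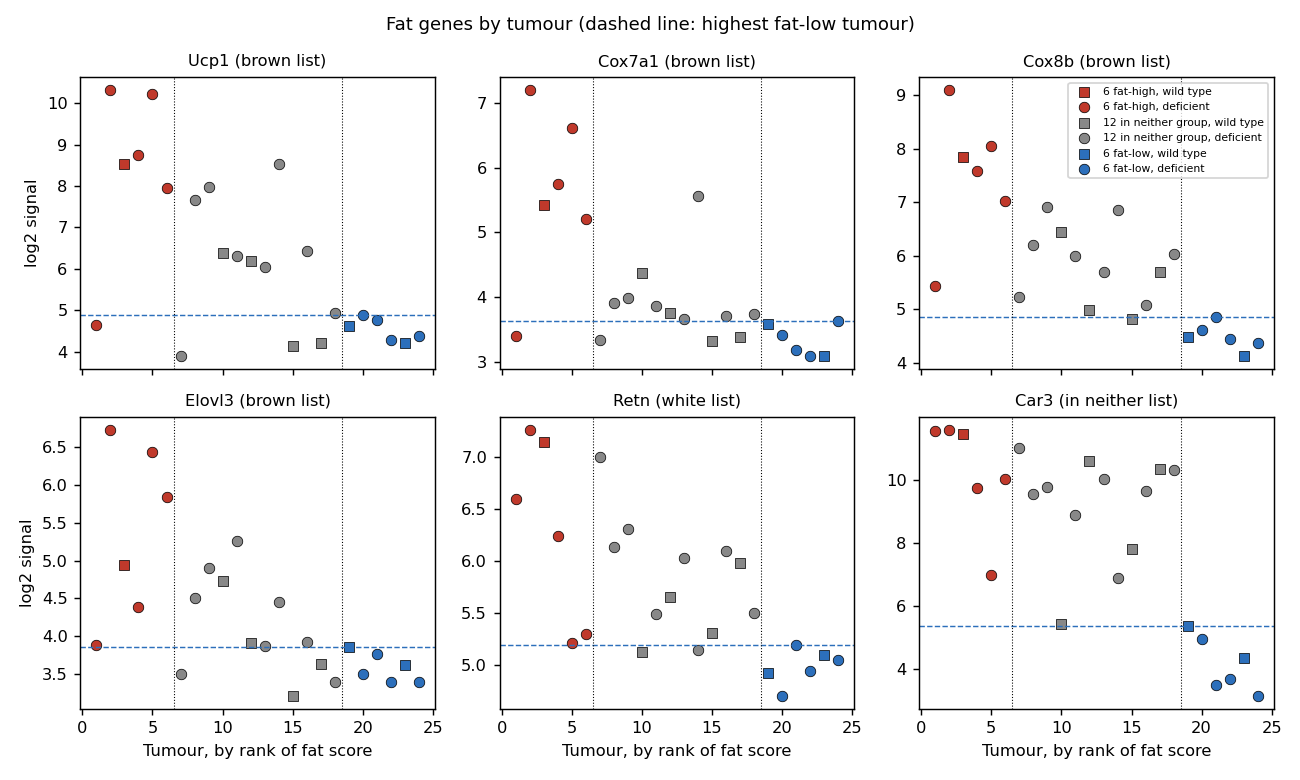
Log2 signal of 4 brown genes, Retn and Car3 in the 24 tumours by rank of the fat score (dashed line, the highest fat-low tumour). The leftmost tumour, deficient tumour 7, has Ucp1 at 4.66 and Car3 at 11.56, and deficient tumour 12 has Ucp1 at 10.22 and Car3 at 6.999.

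Across all genes, 24 were called higher in fat-high tumours (limma, adjusted p under 0.05), or 0.132% of 18190, and 0 were called lower, with 604 lower at an unadjusted p under 0.05 (3.32%). The groups were cut by genes of the same arrays, so a call says only that a gene goes with the score in these tumours. Of the 24, 23 did not overlap between the groups, but they were called on the same values, so little overlap is built in. Of all genes, 0.44% were higher without overlap. All 24 were also positive within both title series, which for the 23 follows from the lack of overlap and adds no support. With title series as a covariate 17 stayed called, and Apoc1, Cd36, Cyp4b1, Lpl, Mfap5, Mrap and Nnmt lost the call (adjusted p = 0.057 to 0.112). A slope on the score over all 24 tumours, which include these 12, called 174 genes positive (0.957%) and 13 negative (0.0715%), among them all 24 as positive.

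Car3, a carbonic anhydrase abundant in adipocytes, had the largest difference, 6.05 ± 0.71 (SE; adjusted p = 0.0038). It ranged from 6.999 to 11.58 (median 10.74) in fat-high and from 3.18 to 5.38 (median 4.02) in fat-low tumours. Car3 is also a muscle gene, and the mean log2 signal of 14 skeletal muscle genes was 3.98 to 4.30 in fat-high and 3.91 to 4.25 in fat-low tumours. Averaged over its 4 probe sets, the difference of Car3 was 2.76, also called (adjusted p = 0.0168).

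Scd1 desaturates fatty acids and differed by 4.03 ± 0.42 (SE; adjusted p = 0.00295), with 9.96 to 11.42 in fat-high and 5.35 to 8.19 in fat-low tumours. Agpat2, which builds phosphatidic acid for triglyceride, differed by 2.68 (adjusted p = 0.00743). Pck1, which supplies glycerol for triglyceride in fat, differed by 2.49 (adjusted p = 0.00626). These 3 were the called genes among 19 of fatty acid and triglyceride synthesis, whose median difference was 0.33 with 14 positive. The shares to set beside this list and those below are 0.132% called higher and 8588 of 18190 positive over all genes. Gpd1, which makes glycerol phosphate, differed by 2.07 (adjusted p = 0.0586) and was called without deficient tumour 7, 3 or 10, at 2.28, 1.75 and 2.27.

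Among 21 genes of fatty acid uptake and oxidation, 3 were called higher, 18 were positive and the median was 0.41. Cd36, a fatty acid transporter, ranged from 7.49 to 9.15 and from 5.53 to 7.51 and differed by 1.996 (adjusted p = 0.0273), the one called gene whose groups overlapped. Lpl, which frees fatty acids from lipoproteins, differed by 1.46 (adjusted p = 0.0273). Decr1, an auxiliary enzyme of mitochondrial beta-oxidation, differed by 1.71 (adjusted p = 0.0166), and by 1.07 averaged over its probe sets, which was not called (adjusted p = 0.0511). Acadl, a dehydrogenase of beta-oxidation, differed by 1.24 (adjusted p = 0.0529) and was called without deficient tumour 7, 4 or 5. Of 26 respiratory chain and citric acid cycle genes 0 were called, with a median of 0.06.

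Lipolysis and droplet genes followed in part. Pnpla2, the first lipase of triglyceride breakdown, differed by 1.02 (adjusted p = 0.0104), and by 0.57 averaged over its probe sets, which was not called (adjusted p = 0.0653). Mgst1, a membrane glutathione transferase placed in this list, differed by 1.78 (adjusted p = 0.0166). Both genes were the 2 called of 16, of which 11 were positive, and the median was 0.44. Lipe, hormone-sensitive lipase, differed by 1.05 (adjusted p = 0.0529) and was called without deficient tumour 12, 4 or 5. Mgll, which completes lipolysis, at 1.12 and Plin4, a droplet coat protein, at 1.24 were called only without deficient tumour 4 among the tumours left out.

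Of 12 adipokines and other secreted fat proteins, 2 were called, 11 were positive and the median was 0.57. Hp, haptoglobin, an acute phase protein of liver, fat and neutrophils, differed by 3.57 ± 0.39 (SE; adjusted p = 0.00295), and deficient tumour 10 was the highest of the fat-high tumours at 10.64. Apoc1, a lipoprotein component, differed by 1.80 (adjusted p = 0.0371). Orm1, another acute phase protein, differed by 1.31 (adjusted p = 0.0855).

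Of the adipocyte transcription factors 0 of 14 were called, 13 were positive and the median was 0.37. Pparg, the master regulator of fat cells, was at 6.10 ± 0.82 and 4.90 ± 0.58 (SD, n = 6 each), a difference of 1.20 (adjusted p = 0.357). Cebpa, its partner, differed by 0.89 (adjusted p = 0.118), and by 1.01 without deficient tumour 4 (adjusted p = 0.037). Of 11 insulin signalling and glucose uptake genes 1 was called, Trarg1, a regulator of glucose transporter traffic, at 0.73 (adjusted p = 0.0216). Slc2a4, the insulin-regulated glucose transporter itself, differed by 0.48 (adjusted p = 0.167) and was called without deficient tumour 7. Among 7 lipid and beta-adrenergic receptor genes measured 0 were called, with a median of 0.06.

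Other called genes were Pdk4, which turns off pyruvate dehydrogenase when fat is burned, at 2.86 (adjusted p = 0.0131), Ghr, the growth hormone receptor, at 2.37 (adjusted p = 0.0131), and Ephx2, the soluble epoxide hydrolase, at 1.94 (adjusted p = 0.00295). Ifi27l2a, an interferon-induced gene, differed by 3.41 (adjusted p = 0.0133). Adig, adipogenin, differed by 1.52 (adjusted p = 0.00295). The others, Mfap5, Mrap, Cyp4b1, Retsat, Nnmt and Sgk1, differed by 0.71 to 1.56, and Retsat was not called when its probe sets were averaged (adjusted p = 0.0631). Cd36, Apoc1, Mfap5, Lpl, Nnmt, Trarg1, Mrap, Cyp4b1 and Sgk1 each lost the call in at least 2 of the 12 fits that left out 1 tumour, in 9 for Mfap5, Lpl and Nnmt. Between 16 and 24 of the 24 stayed called in those fits, all of them without deficient tumour 4, when 47 genes were called in all.

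**Figure D4:**
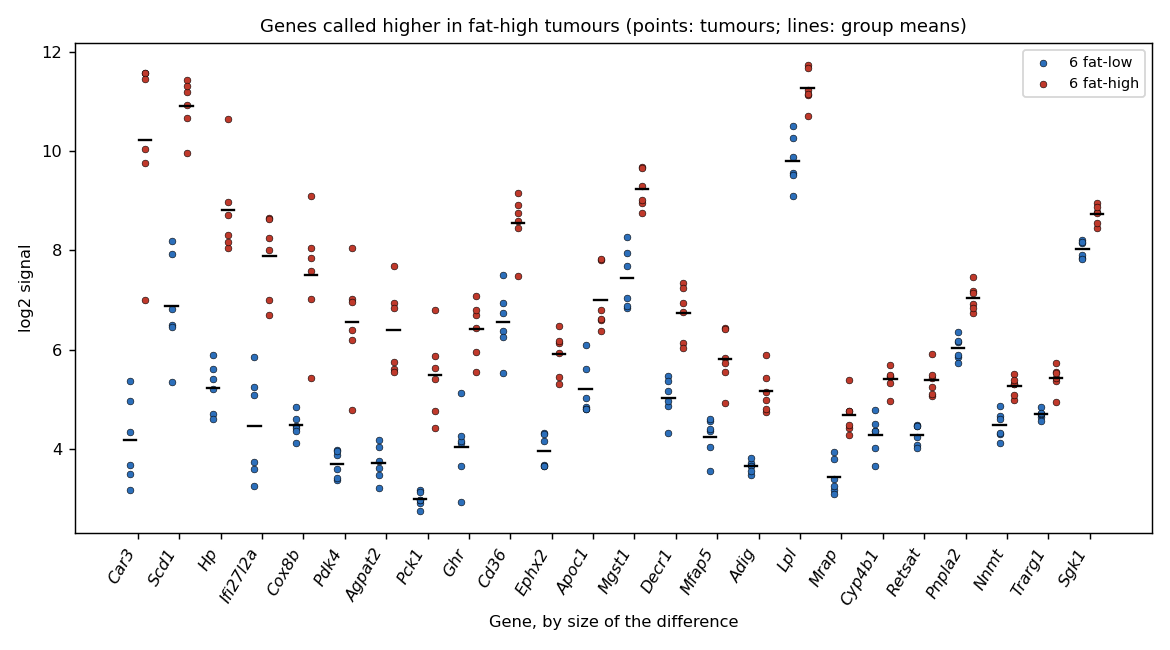
Log2 signal of the 24 called genes in the 6 fat-low and 6 fat-high tumours (points) with group means (lines), ordered by size of the difference. Car3 differs most, at 6.05, and Cd36 is the one gene whose groups overlap.

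The 12 tumours in neither group were not compared above, but they were ranked by the same score. A slope on it says only that a gene goes with the scoring genes in these tumours. In these, 1 gene was called to rise with the score, Scd1, with a slope of 1.07 per unit of score (limma, adjusted p = 0.0112), or 0.0055% of those tested. Of the 24 called genes, 21 had a positive slope and 13 were positive at an unadjusted p under 0.05, against 46.2% and 2.02% of all genes; 2.17% of all genes were negative at that level. The slopes of Car3, Pdk4 and Cyp4b1 were negative. In 3 of these tumours, wild type tumours 7 and 3 and deficient tumour 11, the mean signal of the 14 skeletal muscle genes was 6.79, 7.82 and 8.72, against 3.93 to 4.89 in the other 9. Without those 3, an alternative chosen after seeing the data, 23 of the 24 slopes were positive and 8 at an unadjusted p under 0.05, against 1.26% of all genes. Car3 then had a slope of 1.31, against -0.42 with them, and Pdk4 0.71, against -0.40. Ucp1 had a slope of 1.04 over the 12 tumours and 0.05 over these 9, and Retn 0.45 and 0.88, so which of them had the steeper slope turned with the 3 tumours.

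Markers of other cell types leaned the same way, with 1 gene called. All 15 fibroblast and matrix genes, 16 endothelial, 11 pericyte and smooth muscle and 14 macrophage genes had positive differences, with medians of 0.86, 0.60, 0.62 and 0.66. Only Mfap5 among these was called, against 0.132% of all genes, of which 8588 of 18190 had positive differences. Their mean log2 signals overlapped between the groups: matrix 7.58 to 8.96 against 6.59 to 7.71, endothelial 5.94 to 6.77 against 5.01 to 6.39, pericyte 6.76 to 7.51 against 5.96 to 7.15, and macrophage 7.39 to 8.58 against 6.35 to 7.84. Of the stromal progenitor genes, which mark cells that can become fat, 10 of 13 were positive with a median of 0.33. Gsn, a progenitor-list gene for an actin-severing protein, differed by 1.27 (adjusted p = 0.0596) and was called without wild type tumour 1 or deficient tumour 4. The part of these cells in the results was not tested.

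Liver, kidney, pancreas, adrenal cortex, muscle, Schwann, erythroid and T and NK cell lists had medians between -0.05 and 0.05. Mesothelial, B cell, lymph node stroma, cell cycle, immediate early and hypoxia lists had medians of 0.22, 0.19, 0.18, 0.13, 0.07 and -0.16, with 0 called in each. Of 15 hypoxia and glycolysis genes 3 were positive and 4 were lower at an unadjusted p under 0.05 (limma), against 3.32% of all genes. In contrast, 10 of 10 B cell and 14 of 15 cell cycle genes were positive. Cyp2e1, in the liver list and also a fat gene, stood apart at 3.28 (adjusted p = 0.0596) and was called without deficient tumour 12, at 3.77. The medians hide 1 fat-high tumour, deficient tumour 10, with the liver genes Alb at 7.42 and Hpx at 4.96, the highest of all tumours. Alb was at 3.13 to 3.69 in every other tumour. The erythroid gene Alas2 was also highest in deficient tumour 10, at 11.15. The 18 sympathoadrenal tumour genes had a median of -0.16 with 3 positive and 0 called. Th and Dbh, enzymes of noradrenaline synthesis, differed by -0.42 and -0.70, and Slc18a1, a vesicular amine transporter, by -0.66 (adjusted p = 0.736, 0.547 and 0.183). Casp8 was at 6.02 ± 0.54 and 5.40 ± 0.62 (SD, n = 6 each; adjusted p = 0.633), with the deficient label in 5 fat-high and 4 fat-low tumours. Mycn differed by -0.17 (adjusted p = 0.669). Lower named genes of smallest p, none called, were Bbs2, Ftcd, Meis1, Srcin1, Rab6b and Dgkq, at -0.29 to -0.62. Over all 18190 genes the lowest difference was -5.13, also not called. No gene was called for a different slope on the score between genotypes over the 24 tumours (lowest adjusted p = 0.469), and 4.37% had an unadjusted p under 0.05.

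**Figure D5:**
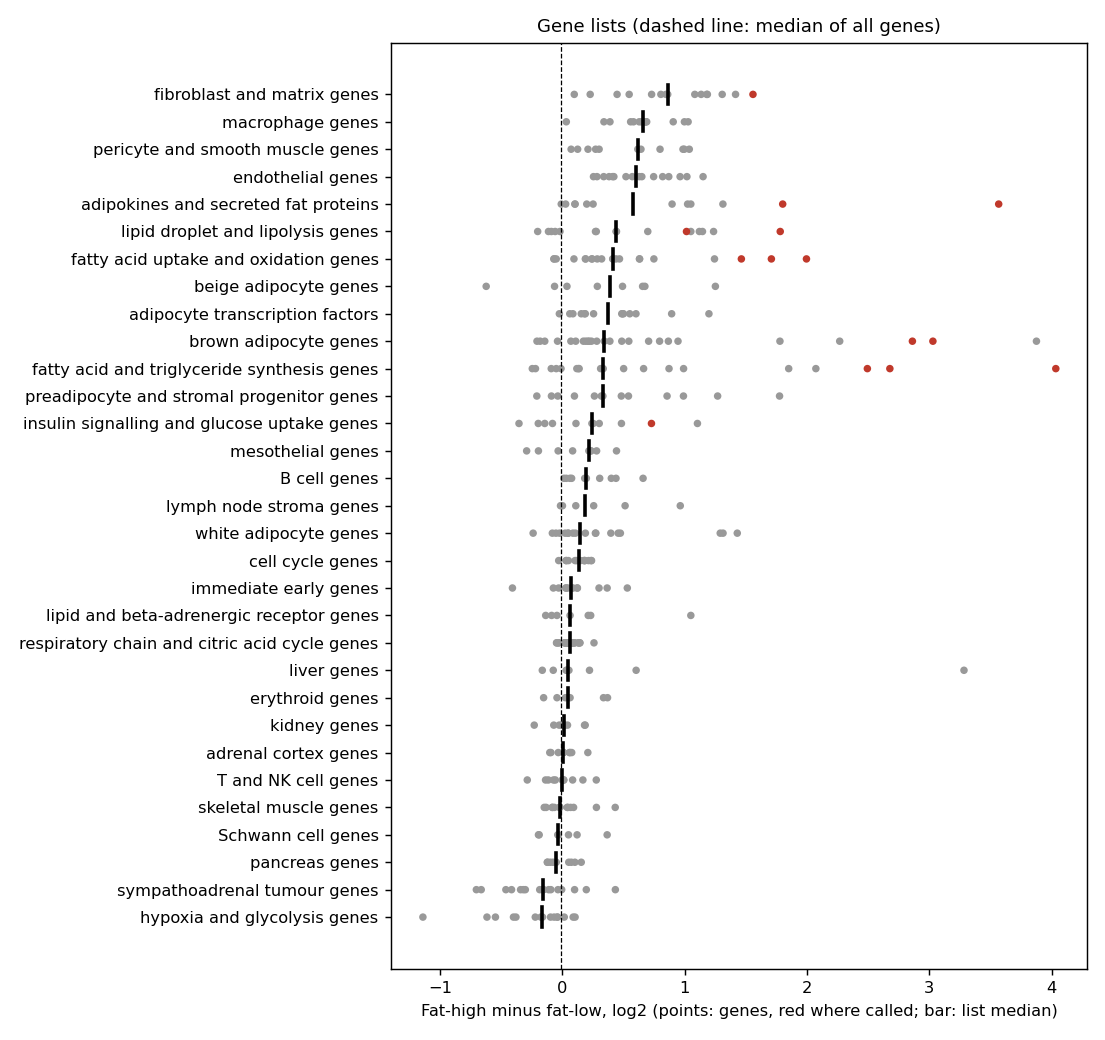
Fat-high minus fat-low log2 difference of each gene (points; red, called) and the median (bar) of each of 31 lists, ordered by median, with the median of all genes at -0.01 (dashed line). The fibroblast and matrix list has the highest median, 0.86, and single genes of the fat lists reach 4.03.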

How the data were processed

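RNA of 24 tumours and 5 bone marrows was hybridised to Affymetrix Mouse430_2 arrays after a two-cycle labelling, per the labels. The deposited values are log2 signals, made by the authors with RMA in Partek 6.6, per the submitters' processing notes, and no value was transformed again. Of 45101 probe sets, 34945 have 1 gene symbol, 932 several and 9160 none, and 64 are controls. Each of 18193 genes was read from its probe set with the highest average across the arrays, with no filter on low values. The score was the mean of 3 of the rule's 5 genes, since no probe set carried the symbol of either of the other 2 alone. These 2 were not analysed here by name. With limma 3.58.1, 18190 genes were tested (R 4.3.3, two-sided, Benjamini-Hochberg adjusted over all genes tested, threshold 0.05). The script was tested on simulated data.

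The middle 12 tumours were fitted with a slope on the score, and a genotype by score interaction over 24. The members, the lists and the tests were chosen with earlier results of these data known. Named genes are the 12 called genes of largest difference in each direction, or the 6 of smallest p where fewer than 5 were called, a set of brown, white and tumour genes, and for each list the 4 of smallest p; the other called genes are named too. Scoring genes, predicted loci without a name, Xist and Y-linked genes were passed over in this naming. Tumours are numbered within genotype in the order of the archive. The 95% interval of a difference reached 0.25 to either side in the median gene, and a 2-fold difference lay outside the interval of 93.5% of genes. Figures used matplotlib 3.10.9.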

Additional observations from a re-analysis of the deposited data

Results flagged for a closer look

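Among 176 sets of 6 tumours (1 gene in 1 group), 9 had a tumour standing apart from its 5 neighbours by the gap at the end of the range, where chance gives about 1 in 20. The 9 flags are near that share and are given as values only. In the fat-high group, these were Hp in deficient tumour 10 at 10.64, Cd68 (a macrophage gene) in wild type tumour 1 at 9.36, Lhx8 in wild type tumour 1 at 4.43, Cav1 in deficient tumour 4 at 8.15 and Zic1 in deficient tumour 4 at 2.52. In the fat-low group, these were Ppargc1a in deficient tumour 5 at 5.90, Tek (an endothelial receptor) in deficient tumour 6 at 4.40, Trem2 (a macrophage receptor) in deficient tumour 17 at 4.61 and Orm1 in wild type tumour 5 at 2.89.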

How the results depend on the processing

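The 24 genes called higher became 15 with a mean log2 value of 5 or more, 42 with genotype as a covariate, 46 with 4 against 4 tumours, 174 for the slope over all 24 tumours, and 1 in the middle 12; leaving out each tumour in turn gave 16 to 47. Other settings gave 20 to 35, among them 28 for a fit of each probe set, which kept probe sets with several symbols or none. Genes called lower became 2 with array weights and without Adipoq in the score, 1 with 4 against 4 and with 8 against 8 tumours, 13 over all 24 tumours, and 0 to 1 when each tumour was left out. The white list median was 0.43 with a mean log2 value of 5 or more. Scaled to the group difference of score, the middle 12 tumours turned the sign of Car3 (-1.45), Cav1 (-0.0016), Col6a3 (-0.40), Cyp4b1 (-0.41), Dbh (1.20), Dio2 (-0.0706), Ftcd (0.19), Hoxc10 (0.0249), P2rx5 (-0.49), Pdk4 (-1.37), Ppargc1a (1.22), Prdm16 (-0.51), Shox2 (0.14), Slc18a1 (0.10), Srcin1 (0.33), Ucp3 (-0.52) and Zic1 (0.18), and the medians of the transcription factor (-0.0354), insulin (-0.21) and cell cycle (-0.0632) lists. Near-zero differences also changed sign elsewhere: Hoxc10 with genotype (0.00998) and 4 against 4 (0.0227), Hoxc9 (-0.0782) and Zic1 (0.0029) with 4 against 4, and Prdm16 (-0.0156) and Zic1 (0.0043) without Adipoq. Leaving out each tumour in turn gave -0.0604 to 0.0167 for Hoxc10, -0.0079 to 0.0561 for Lep, -0.0723 (without wild type tumour 1) to 0.347 for Lhx8 and -0.335 to 0.142 (without deficient tumour 5) for Ppargc1a. The cause was not tested. Averaging the probe sets of each gene took the differences of Car3 to 2.76, Scd1 to 2.46, Pck1 to 0.94, Ghr to 1.40 and Mgst1 to 0.84, and kept 21 of the 24 calls, losing Decr1 (1.07), Retsat (0.94) and Pnpla2 (0.57). No paired analysis was possible because replicate numbers follow the archive order and pair no tumours.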

Other observations

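The 5 bone marrow arrays, which enter no comparison of the report, had Ucp1 at 3.87 to 4.19, below the fat-low range of 4.21 to 4.89, and Retn at 5.54 to 5.71, above the highest fat-low tumour. Hp, a neutrophil granule protein as well as a fat one, was at 11.70 to 12.23 in marrow, above the 8.05 to 10.64 of the fat-high tumours. Car3 was at 6.24 to 7.17 in marrow. The fat score of the marrow arrays was 6.51 to 7.44, above the highest fat-low tumour at 5.51. Adipoq was at 7.18 to 9.68 in marrow, against at most 3.90 in fat-low tumours. Fabp4 in marrow lay inside the fat-low range, and Cidec was at 2.75 to 3.45 against 2.82 to 3.31. By this score, marrow is thus not a fat-free comparison. Cidea was at 3.38 to 4.21 in marrow, against 9.23 or more in every tumour of both groups.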
